A study of Mus musculus with 12 samples.

Results

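The genes described here encode structural proteins of the sarcomere, the Z-disc and the costamere, with some of the chaperones, methyltransferases and ubiquitin ligases that act on them. They were taken by a fixed list of 41 gene symbols, each matched to its probe set on the arrays. Myosins, tropomyosins, troponins and actins were left out of the list. The list also holds Ldb1, which encodes a cofactor that binds LIM domains. All 41 genes were measured, of 24704 genes in all, and 40 were bright enough to be tested. The exception was the M-band gene Myom3, whose log2 signal of 2.93 to 3.34 counted as dim. Murc was measured under its current symbol, Cavin4.

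The arrays came from cultured ventricular myocytes of adult mice, isolated by enzymatic Langendorff perfusion and kept for 24 h with or without 100 nM isoprenaline (Iso), an agonist of beta-adrenergic receptors. The mice were either double knockouts (DKO) deficient for CaMKIIδ and CaMKIIγ, calcium/calmodulin-dependent kinases encoded by Camk2d and Camk2g, or the corresponding wild type (WT). Untreated WT, Iso-treated WT, untreated DKO and Iso-treated DKO myocytes gave 3 arrays each. There were 3 mice per genotype, and each mouse gave 1 untreated and 1 treated array. The sources used here do not give the strain, the sex or the way the knockout was made. The study asked whether expression after Iso differs between WT and DKO myocytes.

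The sarcomere is the contractile unit of striated muscle. Thin actin filaments are anchored at the Z-disc by alpha-actinin, thick myosin filaments are crosslinked at the M-band, and titin spans from the Z-disc to the M-band as a molecular spring. At costameres, dystrophin and vinculin couple the outermost Z-discs to the membrane and the matrix outside the cell. In the heart, mutations in many of these genes cause cardiomyopathy, and the kinase CaMKII phosphorylates several of their proteins.

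Expression values are log2 signals, so a difference of 1 is a factor of 2. Camk2g was lower on DKO arrays by 1.17 untreated (-1.17, adjusted p = 0.0361) and by 1.67 with Iso (-1.67, adjusted p = 0.00238). For Camk2d the differences were -0.29 (adjusted p = 0.446) and -0.35 (adjusted p = 0.640). Whether its probes lie in the deleted part was not determined here. The 12 ventricular myocyte markers had a mean signal of 12.37 to 12.62 on every array. Atrial markers spread more on WT arrays (6.30 to 8.57) than on DKO arrays (6.25 to 6.81). The macrophage and leukocyte list was lower on Iso-treated DKO arrays (4.44 to 4.61) than on the others (4.79 to 5.08). Untreated DKO array 3 stood apart, with a median correlation to the other arrays of 0.956 against 0.984 to 0.988 for the rest. It was the lowest of the 12 arrays for 16 of the 40 members and the highest for 7. Some named differences that use it are therefore also given without it. Others are given over all 12 arrays only and may move without it. Among these are the Iso difference of Nebl in DKO, the untreated genotype difference of Dmd and the values of genes from further lists.

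Between arrays of a group, the structural genes varied slightly less at the median than all genes tested. The median pooled standard deviation of the 40 members was 0.181, against 0.207 over the 13737 genes tested. It ran from 0.0696 for Capzb, the beta subunit of the actin capping protein, to 0.407 for Ldb1, a cofactor that binds LIM domains.

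**Figure D1:**
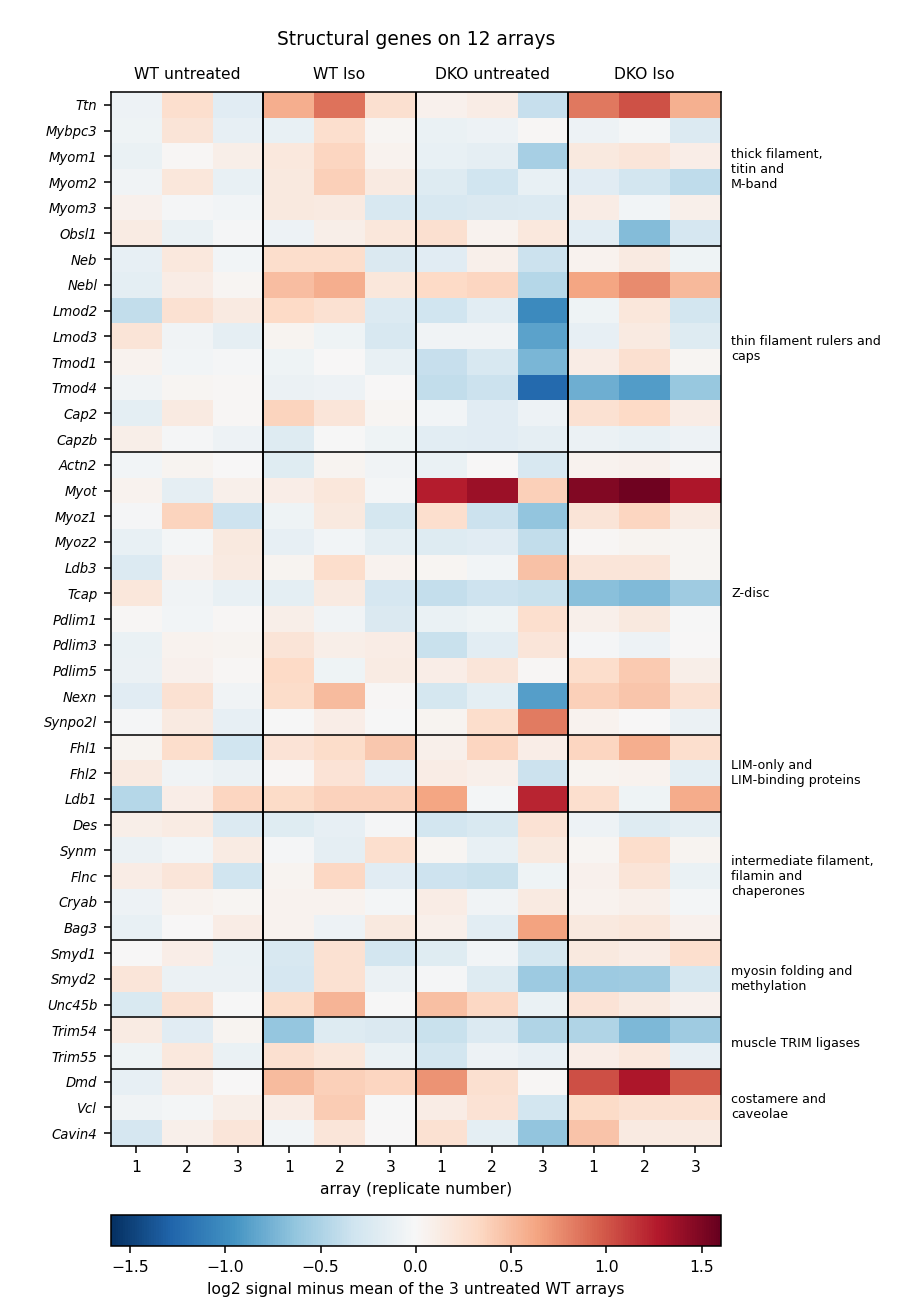
Log2 signal of the 41 structural genes on each of the 12 arrays, minus the mean of the 3 untreated WT arrays (colour scale in log2 units), with genes grouped by role and arrays by group. Myot is high on DKO arrays, Tmod4 and Tcap are low there, and untreated DKO array 3 is pale or dark blue for most thin filament genes.

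Loss of the kinases went with a higher level of 1 structural gene, Myot, which encodes the Z-disc protein myotilin. With Iso, Myot rose 2.56-fold in DKO over WT myocytes, and it was the 1 member of 40 that passed at an adjusted p under 0.05. Over all genes tested, 0.306% passed in that comparison. Without Iso, 0 of 40 members passed, against 0.204% of all genes. Averaged over both treatments, 1 of 40 passed, again Myot, against 0.546% of all genes, and 18 of 40 differences lay above 0 (49.2% of all genes).

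The other members lay on both sides of 0. In untreated myocytes, 15 of 40 differences between DKO and WT lay above 0, where 48.1% of all genes did, with a median of -0.11 against -0.01. With Iso, 21 of 40 lay above 0, where 50.9% of all genes did, with a median of 0.01 against 0.01. At an unadjusted p under 0.05 stood 2 higher and 6 lower members without Iso (13.8% of all genes in either direction) and 2 higher and 5 lower with Iso (7.91%).

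Groups of arrays that did not overlap were more frequent than passing tests. Without Iso, all DKO arrays lay above all WT arrays for 1 member, Myot (7.84% of all genes), and below them for 7: Myom1, Tmod1, Tmod4, Capzb, Myoz2, Tcap and Trim54 (9.21%). With Iso, 4 lay above (Tmod1, Myot, Myoz2 and Dmd; 9.03%) and 6 below (Myom2, Obsl1, Tmod4, Tcap, Pdlim3 and Smyd2; 8.56%). Tmod1 and Myoz2 thus stood on opposite sides in the 2 treatments. The untreated counts without untreated DKO array 3 were 6 above (13.7% of all genes) and 12 below (16.4%), with 2 DKO arrays instead of 3. The endothelial list, which is highest on that array (6.96), was also higher in untreated DKO over all 12 arrays, with a median of 0.38. Of its 12 markers, 9 lay above 0 (48.1% of all genes) and 5 had an unadjusted p under 0.05 (13.8%). The part of this list in these values was not tested.

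Isoprenaline gave no structural gene that passed in either genotype. In WT, 0 of 40 members passed by limma (0.0218% of all genes), and 2 higher and 1 lower member had an unadjusted p under 0.05 (6.7% of all genes). In DKO, 0 of 40 passed (0.051% of all genes), and 9 higher and 2 lower members had an unadjusted p under 0.05 (18.4%). Averaged over genotypes, 0 of 40 passed (0.124%), with 8 higher and 2 lower at an unadjusted p under 0.05 (14.4%), and 28 of 40 differences lay above 0 (50.3%). The smallest adjusted p belonged to titin (Ttn) in the average, at 0.0649, followed by dystrophin (Dmd) at 0.0656.

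In WT, 27 of 40 Iso differences lay above 0 (47.8% of all genes), with a median of 0.06 against -0.01. In DKO, 26 of 40 lay above 0 (50.9%), with a median of 0.16 against 0.01. Treated WT arrays all lay above untreated ones for Nebl, Pdlim3 and Dmd (3 of 40; 7.16% of all genes) and below for Trim54 (1 of 40; 8.42%). Treated DKO arrays all lay above for 12 members (10.8%): Ttn, Myom1, Nebl, Tmod1, Cap2, Capzb, Actn2, Myoz2, Nexn, Smyd1, Dmd and Vcl. They all lay below for 2, Obsl1 and Tcap (10.7%). Without untreated DKO array 3, 28 of 40 Iso differences in DKO lay above 0 (51.4% of all genes), with a median of 0.14, and the counts were 18 above (17.1%) and 7 below (15.8%).

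The mouse is the closest match between a treated and an untreated array. In 6 of 6 mice the treated array was higher for Ttn, Nebl, Cap2, Nexn, Fhl1 and Dmd. These are 6 of 40 members, where 3.49% of all genes were higher in every mouse. Trim54, which encodes a muscle ubiquitin ligase, was lower in 6 of 6 mice (1 of 40 members; 3.58% of all genes).

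**Figure D2:**
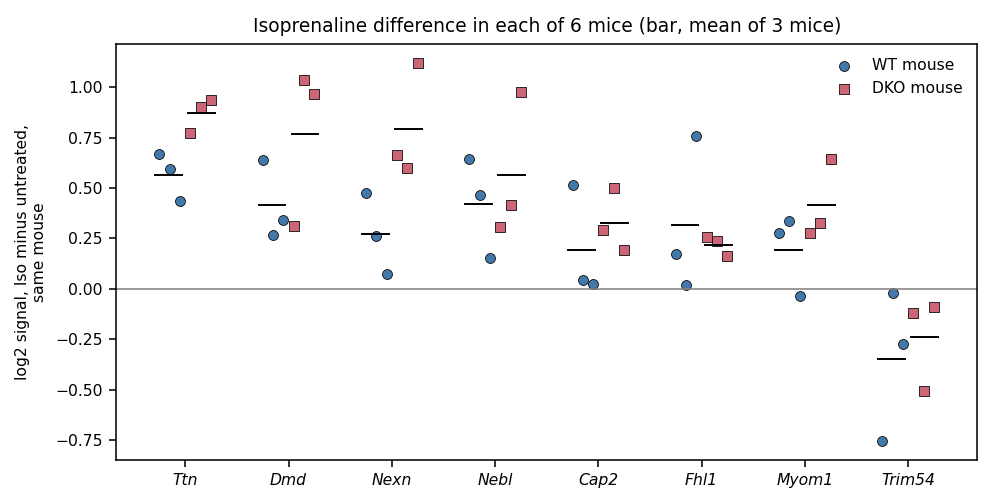
Iso-treated minus untreated log2 signal within each of the 6 mice for 8 structural genes; each symbol is a mouse and each bar the mean of 3 mice. All mice lie above 0 for Ttn, Dmd, Nexn, Nebl, Cap2 and Fhl1, all lie below 0 for Trim54, and for Myom1 1 WT mouse lies below 0.

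Titin showed the largest Iso difference among the members in both genotypes. Untreated WT arrays read 10.58, 10.93 and 10.48 for Ttn, and treated ones 11.24, 11.52 and 10.91, in mouse order. In DKO the untreated arrays read 10.73, 10.78 and 10.30 and the treated ones 11.50, 11.69 and 11.23. The treated DKO arrays all lay above the untreated ones, while in WT the lowest treated array fell just below the highest untreated one. The difference was 0.57 in WT (SE 0.20, adjusted p = 0.603) and 0.87 in DKO (SE 0.20, adjusted p = 0.0742), neither of which passed. The DKO difference was 0.72 without untreated DKO array 3 (adjusted p = 0.120). Averaged, it was 0.72 (95% interval 0.42 to 1.02, 1.64-fold, adjusted p = 0.0649). With the mouse as a fixed block the adjusted p was 0.0343, and without that array it was 0.0497, with a difference of 0.64. Between genotypes Ttn differed by -0.06 untreated and 0.25 with Iso.

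Dystrophin, encoded by Dmd, links the actin cytoskeleton to a glycoprotein complex in the membrane. Its WT arrays read 6.44, 6.68 and 6.57 untreated and 7.08, 6.95 and 6.91 with Iso. Its DKO arrays read 7.29, 6.83 and 6.58 untreated and 7.60, 7.86 and 7.55 with Iso. Treated arrays lay above untreated ones in both genotypes, and the treated DKO arrays were the highest of the 12. The Iso difference was 0.41 in WT (SE 0.17, adjusted p = 0.685), 0.77 in DKO (SE 0.17, adjusted p = 0.0714) and 0.59 averaged (adjusted p = 0.0656). The difference of DKO from WT was 0.33 untreated (adjusted p = 0.398), 0.69 with Iso (adjusted p = 0.160) and 0.51 averaged (adjusted p = 0.0955). Without untreated DKO array 3, the Iso difference of Dmd in DKO was 0.61 (adjusted p = 0.105), and Dmd passed for Iso averaged (0.51, adjusted p = 0.0497), for genotype with Iso (0.69, adjusted p = 0.0367) and for genotype averaged (0.59, adjusted p = 0.0152).

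Promoter sequences were at hand for 32 of the 41 genes, as the 250 bases before each annotated start in RefSeq (GRCm38.p6). Those of Ttn and Dmd are shown because these genes had the smallest p-values for Iso. Those of Myom1 and Tmod1 are shown as members of the M-band and the thin filament that had among the smallest p-values for Iso in DKO or averaged. Obsl1 and Nebl, of the same roles, also had such p-values and are not shown, so the p-values alone did not set this choice. Capitals mark matches to the binding motifs of MEF2 or of serum response factor (the CArG box), factors that act on many muscle genes, and to the letters TGACG of a cyclic AMP response element. For a gene with several starts, only windows with a MEF2 match or a CArG box were shown, so the matches took part in that choice. Both strands were searched, and each sequence is written 5′ to 3′ in the direction of transcription.
Ttn, chr2:76982548-76982797, minus strand: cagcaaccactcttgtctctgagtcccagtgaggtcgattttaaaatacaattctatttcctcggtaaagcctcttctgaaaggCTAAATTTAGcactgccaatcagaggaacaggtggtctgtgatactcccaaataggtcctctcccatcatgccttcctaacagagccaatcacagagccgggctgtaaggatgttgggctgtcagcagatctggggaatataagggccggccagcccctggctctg
Dmd, chrX:82948620-82948869, plus strand: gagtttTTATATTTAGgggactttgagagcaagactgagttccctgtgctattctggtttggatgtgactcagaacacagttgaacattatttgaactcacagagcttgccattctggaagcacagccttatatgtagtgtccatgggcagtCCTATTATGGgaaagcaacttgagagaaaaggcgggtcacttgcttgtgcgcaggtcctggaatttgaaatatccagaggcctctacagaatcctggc
Myom1, chr17:71019307-71019556, plus strand: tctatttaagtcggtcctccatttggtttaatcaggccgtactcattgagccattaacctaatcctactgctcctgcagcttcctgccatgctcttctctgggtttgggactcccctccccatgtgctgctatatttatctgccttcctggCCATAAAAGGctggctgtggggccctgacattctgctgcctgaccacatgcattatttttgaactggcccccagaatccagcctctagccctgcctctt
Tmod1, chr4:46038972-46039221, plus strand: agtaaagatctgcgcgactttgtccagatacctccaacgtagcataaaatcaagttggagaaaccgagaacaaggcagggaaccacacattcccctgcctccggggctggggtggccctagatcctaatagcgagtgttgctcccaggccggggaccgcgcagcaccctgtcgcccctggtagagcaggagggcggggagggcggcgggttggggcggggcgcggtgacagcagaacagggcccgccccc
The Ttn window shown holds a MEF2 match from -166 to -157, counted from the start. The Dmd window holds a MEF2 match from -244 to -235 and a CArG box from -98 to -89, and that of Myom1 a CArG box from -99 to -90. None of these motifs is in the Tmod1 window.

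Over the 44 windows of the 32 genes, MEF2 matches were in 18.2%, against 2.92% of 32851 windows of all genes. CArG boxes were in 20.5% against 1.47%, TGACG in 20.5% against 17.8% and the E-box CANNTG in 63.6% against 66.2%. Windows with a MEF2 match belonged to Dmd, Fhl2, Mybpc3, Myom3, Myoz2, Synpo2l and Ttn. Those with a CArG box belonged to Dmd, Fhl1, Fhl2, Ldb3, Myom1, Nebl and Vcl. A match describes the letters and no binding was measured.

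Among the other thick filament and M-band genes, Myom1 and Myom2 encode the myomesins that crosslink thick filaments. Myom1 read 8.87, 8.99 and 9.08 on untreated and 9.15, 9.33 and 9.04 on treated WT arrays. On DKO arrays it read 8.86, 8.84 and 8.45 untreated and 9.14, 9.17 and 9.09 with Iso. The treated DKO arrays lay above the untreated ones, and the WT groups overlapped. Its averaged Iso difference of 0.30 (SE 0.10, adjusted p = 0.185) did not pass, and without untreated DKO array 3 it was 0.24.

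Myom2 read 9.29, 9.52 and 9.22 on untreated and 9.50, 9.72 and 9.48 on treated WT arrays, and 9.14, 9.02 and 9.23 on untreated and 9.16, 9.05 and 8.94 on treated DKO arrays. The groups overlapped without Iso and were apart with it. The difference of DKO from WT was -0.21 untreated (adjusted p = 0.470) and -0.52 with Iso (SE 0.13, 1.43-fold, adjusted p = 0.166), and these values differed by -0.30 (adjusted p = 0.564).

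Obsl1 encodes an obscurin-like protein that binds titin and myomesin at the M-band. Untreated arrays read 5.15, 4.92 and 5.00 in WT and 5.29, 5.08 and 5.20 in DKO. Treated arrays read 4.95, 5.12 and 5.20 in WT and 4.86, 4.33 and 4.75 in DKO. The treated DKO arrays lay below all others. Iso gave -0.54 in DKO (SE 0.15, adjusted p = 0.105) and 0.06 in WT, and the difference between these, -0.60 (SE 0.21, adjusted p = 0.394), did not pass. Mybpc3, which encodes the cardiac myosin-binding protein C, lay between 9.82 and 10.32 on every array.

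The pointed ends of thin filaments are capped by tropomodulins. Tmod1 is the main one of the heart and Tmod4 is best known from fast skeletal muscle. Tmod1 read 10.76, 10.67 and 10.70 on untreated and 10.64, 10.72 and 10.59 on treated WT arrays. On DKO arrays it read 10.35, 10.46 and 9.98 untreated and 10.83, 10.96 and 10.74 with Iso. The untreated DKO arrays were thus the lowest of the 12, and the treated DKO arrays lay above all treated WT arrays. The Iso difference was 0.58 in DKO (SE 0.13, adjusted p = 0.0757) and -0.06 in WT. The difference between them was 0.65 (95% interval 0.23 to 1.06, unadjusted p = 0.00488, adjusted p = 0.369), the smallest p of the 40 members for that comparison. Untreated DKO differed from untreated WT by -0.45 (adjusted p = 0.197), a value that shares the untreated DKO arrays with the Iso difference in DKO. Without untreated DKO array 3 the Iso difference in DKO was 0.44 (adjusted p = 0.113), the untreated genotype difference -0.31 (adjusted p = 0.295) and the difference between Iso differences 0.51 (adjusted p = 0.311).

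Tmod4 was lower on every DKO array than on any WT array. WT arrays read 8.27, 8.35 and 8.34 untreated and 8.23, 8.24 and 8.33 with Iso. DKO arrays read 7.93, 7.98 and 7.08 untreated and 7.54, 7.43 and 7.72 with Iso. The lowest was untreated DKO array 3. The difference was -0.66 untreated (SE 0.20, adjusted p = 0.199), -0.71 with Iso (adjusted p = 0.258) and -0.68 averaged (95% interval -0.99 to -0.38, adjusted p = 0.0549). Without untreated DKO array 3 it was -0.37 untreated (adjusted p = 0.222), and it passed with Iso (-0.71, adjusted p = 0.00743) and averaged (-0.54, adjusted p = 0.00557).

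Nebulette, encoded by Nebl, is the cardiac relative of nebulin and binds thin filaments near the Z-disc. It read 8.86, 9.13 and 9.04 on untreated and 9.50, 9.59 and 9.19 on treated WT arrays, and 9.33, 9.35 and 8.55 on untreated and 9.63, 9.77 and 9.52 on treated DKO arrays. Treated arrays lay above untreated ones in both genotypes. The Iso difference was 0.42 in WT (adjusted p = 0.757), 0.56 in DKO and 0.49 averaged (SE 0.14, adjusted p = 0.155), or 0.36 averaged without untreated DKO array 3 (adjusted p = 0.0990).

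The remaining thin filament genes gave smaller or more scattered values. Lmod2 and Lmod3 encode leiomodins, which help thin filaments grow. Their lowest arrays were both untreated DKO array 3, at 8.26 and 6.30, and the median deviation of the 8 thin filament genes from their means over all 12 arrays was -0.69 on that array. For Cap2, which encodes an actin-binding protein of filament turnover, the averaged Iso difference was 0.26 (adjusted p = 0.214). Nebulin (Neb) itself lay between 3.45 and 4.08, and Capzb between 10.97 and 11.27.

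At the Z-disc, myotilin binds alpha-actinin, filamin C and actin. Myot read 8.40, 8.20 and 8.42 on untreated and 8.45, 8.52 and 8.30 on treated WT arrays. On DKO arrays it read 9.59, 9.71 and 8.72 untreated and 9.82, 9.89 and 9.63 with Iso. Every DKO array lay above every WT array, and the DKO array nearest to WT was untreated array 3. The means were 8.34 ± 0.12 and 8.42 ± 0.11 in WT and 9.34 ± 0.54 and 9.78 ± 0.14 in DKO (SD, n = 3), without and with Iso.

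The difference in Myot with Iso was 1.36 (SE 0.21, 95% interval 0.90 to 1.82, adjusted p = 0.0198). Untreated it was 1.00 (SE 0.21, adjusted p = 0.0952), and averaged over treatments it was 1.18 (SE 0.15, 2.27-fold, adjusted p = 0.00215). Without untreated DKO array 3 the untreated difference was 1.31 and passed (adjusted p = 0.000787). Leaving out any 1 of the 6 Iso-treated arrays kept the difference with Iso between 1.30 and 1.43 but raised its adjusted p to between 0.0533 and 0.129. Iso itself gave 0.08 in WT and 0.44 in DKO for Myot. By mouse it gave 0.05, 0.32 and -0.12 in WT and 0.23, 0.18 and 0.91 in DKO. The DKO value of 0.91 is the one that uses untreated DKO array 3.

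Markers of other cells were read beside Myot. The 10 skeletal muscle markers, of which 5 were bright enough to test, had a mean signal of 4.16 to 4.35 on WT and 4.12 to 4.24 on DKO arrays. That mean is raised by Ckm, which is also in the ventricular myocyte list and read 10.57 to 11.67. Of the others, the highest value was 6.07, of Tnni2, which read 5.36 to 6.07 on WT and 4.05 to 5.48 on DKO arrays. The atrial list read 6.32 to 7.74 on untreated and 6.30 to 8.57 on treated WT arrays, and 6.41 to 6.81 and 6.25 to 6.49 on DKO arrays. Its genes did not move together. Nppa read 11.71 to 13.02 on WT and 10.65 to 11.39 on DKO arrays. Sln (8.33 and 8.11) and Myl7 (8.16 and 7.93) were highest on Iso-treated WT arrays 1 and 2, and on Iso-treated WT array 3 they read 3.27 and 4.82. The part of these lists, and of the lower macrophage list on Iso-treated DKO arrays, in the Myot difference was not tested. In such cultures, fewer cells of a type and less RNA per cell cannot be told apart.

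**Figure D3:**
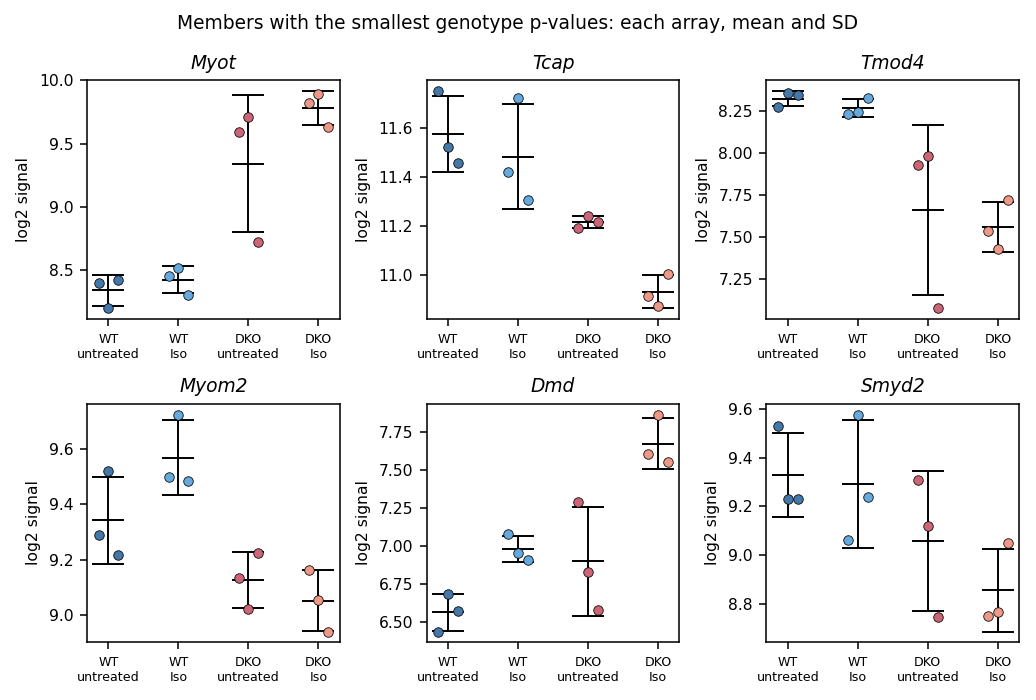
Log2 signal of 6 structural genes on each array (points) with the mean and SD of 3 arrays per group (bars); each panel has its own vertical axis. Myot is higher and Tmod4 and Tcap lower on all 6 DKO arrays than on all 6 WT arrays, and the Dmd and Smyd2 groups without Iso overlap.

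Tcap encodes telethonin, which holds the ends of titin together at the Z-disc. It read 11.75, 11.52 and 11.46 on untreated and 11.42, 11.72 and 11.30 on treated WT arrays. On DKO arrays it read 11.19, 11.24 and 11.21 untreated and 10.91, 10.87 and 11.00 with Iso. The highest DKO array was below the lowest WT array. The difference was -0.36 untreated (SE 0.13, adjusted p = 0.265), -0.55 with Iso (adjusted p = 0.15) and -0.46 averaged (95% interval -0.66 to -0.25, 1.37-fold, adjusted p = 0.0547). The averaged value passed under 6 of the alternative settings, among them without untreated DKO array 3 (-0.46, adjusted p = 0.0377).

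Nexn encodes nexilin, an actin-binding protein of the Z-disc and of the junctions with transverse tubules. It read 10.05, 10.48 and 10.18 on untreated and 10.53, 10.74 and 10.25 on treated WT arrays, and 9.96, 10.08 and 9.36 on untreated and 10.62, 10.68 and 10.48 on treated DKO arrays. WT groups overlapped and DKO groups did not. The Iso difference was 0.27 in WT and 0.79 in DKO (SE 0.19, adjusted p = 0.0865), and without untreated DKO array 3 it was 0.57 in DKO. The difference between genotypes in the Iso difference was 0.52 (adjusted p = 0.524), or 0.30 without that array.

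Myoz2 encodes calsarcin-1, which ties the phosphatase calcineurin to alpha-actinin. It read 12.37, 12.45 and 12.64 on untreated and 12.36, 12.44 and 12.33 on treated WT arrays, and 12.28, 12.30 and 12.10 on untreated and 12.51, 12.54 and 12.51 on treated DKO arrays. Iso gave -0.11 in WT and 0.29 in DKO, and the difference of 0.40 (SE 0.16, adjusted p = 0.447) did not pass. It was 0.34 without untreated DKO array 3. Alpha-actinin itself (Actn2) stayed between 11.71 and 12.03 on the 12 arrays.

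The genes of the PDZ and LIM proteins of the Z-disc kept to narrow ranges. Pdlim1 lay between 9.18 and 9.68, Pdlim3 between 7.39 and 7.95 and Pdlim5 between 7.54 and 8.04. Ldb3, which encodes the alpha-actinin partner Cypher, lay between 8.66 and 9.34, with its highest value on untreated DKO array 3. Synpo2l was also highest there, at 7.55, while its other 11 arrays lay between 6.59 and 7.00. Myoz1 was low, between 3.46 and 4.44.

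Fhl1 and Fhl2 encode proteins made of LIM domains that sit on titin. Fhl1 read 5.69, 5.92 and 5.32 on untreated and 5.86, 5.94 and 6.08 on treated WT arrays, and 5.73, 5.99 and 5.75 on untreated and 5.99, 6.22 and 5.91 on treated DKO arrays. Its Iso difference was 0.32 in WT (adjusted p = 0.779) and 0.22 in DKO, and the groups overlapped in both genotypes. Fhl2 lay between 11.04 and 11.60. Ldb1 scattered from 5.66 to 7.32.

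Among intermediate filament, filamin and chaperone genes, no difference between groups exceeded 0.31 in size. Desmin (Des), which wraps the Z-discs, lay between 10.72 and 11.25. Synemin (Synm) lay between 3.90 and 4.31, and filamin C (Flnc) between 8.72 and 9.41. The small heat shock protein gene Cryab, whose product protects desmin and titin, lay between 12.59 and 12.82. Bag3, a co-chaperone in the turnover of filamin, lay between 5.52 and 6.33, with its highest value on untreated DKO array 3.

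The factors that fold and methylate myosin gave mixed values. Smyd1, a methyltransferase of striated muscle, read 9.94, 10.04 and 9.82 on untreated and 9.68, 10.17 and 9.64 on treated WT arrays. On DKO arrays it read 9.74, 9.89 and 9.65 untreated and 10.09, 10.05 and 10.20 with Iso. Treated DKO arrays lay above untreated ones and WT groups overlapped, with a difference between the Iso differences, DKO minus WT, of 0.46 (SE 0.21, adjusted p = 0.493). It was 0.40 without untreated DKO array 3. Smyd2, which methylates the chaperone Hsp90, differed between DKO and WT by -0.44 with Iso (adjusted p = 0.548). The myosin chaperone gene Unc45b lay between 5.74 and 6.53.

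Trim54 and Trim55 encode ligases that bind titin and microtubules. Trim54 read 10.30, 9.98 and 10.20 on untreated and 9.54, 9.96 and 9.93 on treated WT arrays, and 9.80, 9.95 and 9.68 on untreated and 9.68, 9.44 and 9.59 on treated DKO arrays. Untreated WT arrays were the highest of the 12. The Iso difference in WT was -0.35 (SE 0.15, adjusted p = 0.695), and that of untreated DKO from untreated WT was also -0.35 (adjusted p = 0.314), or -0.29 without untreated DKO array 3; both use the untreated WT arrays. Trim55 lay between 6.05 and 6.59.

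At the costamere, vinculin (Vcl), which binds talin and actin, lay between 7.15 and 7.84, and its Iso differences were 0.17 in WT and 0.24 in DKO. By mouse they were 0.18, 0.43 and -0.10 in WT and 0.18, 0.003 and 0.54 in DKO, the last with untreated DKO array 3. Cavin4, a coat protein of muscle caveolae, lay between 8.62 and 9.71, with its lowest value on untreated DKO array 3. Some members lie close to the targeted genes on the chromosome. Between Camk2g and Vcl, Synpo2l and Myoz1 on chromosome 14 there are 1, 5 and 6 protein-coding genes, and between Camk2d and Myoz2 on chromosome 3 there are 11, by the GRCm38.p6 gene table. None of these 4 members passed in a comparison of genotypes.

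The Iso differences of the genotypes were compared by their difference, DKO minus WT. By limma, 0 of 40 members passed (0.0146% of all genes), with 3 higher (Tmod1, Myoz2 and Smyd1) and 1 lower (Obsl1) at an unadjusted p under 0.05 (10.1%). Of the 40 differences 25 lay above 0 (50.8% of all genes), with a median of 0.09 against 0.01. By role, 7 of 8 thin filament genes (median 0.15), 7 of 11 Z-disc genes (0.12), 3 of 5 intermediate filament, filamin and chaperone genes (0.06), 2 of 2 muscle ligases (0.11) and 3 of 3 costamere genes (0.35) lay above 0. So did 2 of 5 thick filament and M-band genes (median -0.12), 1 of 3 genes of myosin folding and methylation (-0.17) and 0 of 3 LIM-only and LIM-binding genes (-0.10).

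**Figure D4:**
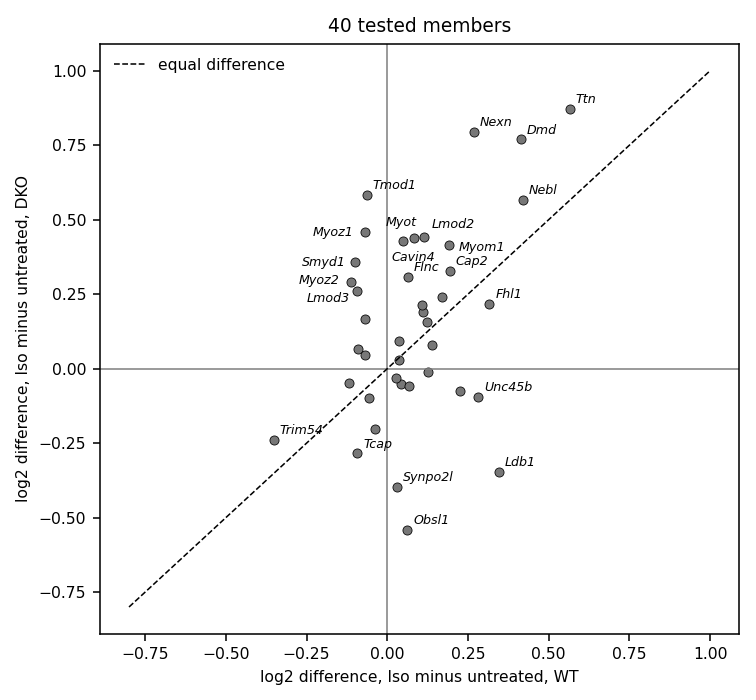
Iso-treated minus untreated log2 difference of the 40 tested structural genes in WT (horizontal) and DKO (vertical); the dashed line marks equal differences. Ttn, Dmd, Nexn and Nebl lie at the upper right, and Tmod1 lies near 0 in WT at 0.58 in DKO.

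In the Iso comparison of WT, the 95% intervals of 40 of 40 members lay within a 2-fold change either way, and in DKO those of 37, all but Ttn, Nexn and Dmd. For the genotype comparisons it was 36 of 40 without Iso and 37 with Iso, and for the difference between Iso differences 33. The 3 arrays per group limit the precision of each value.

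**Figure D5:**
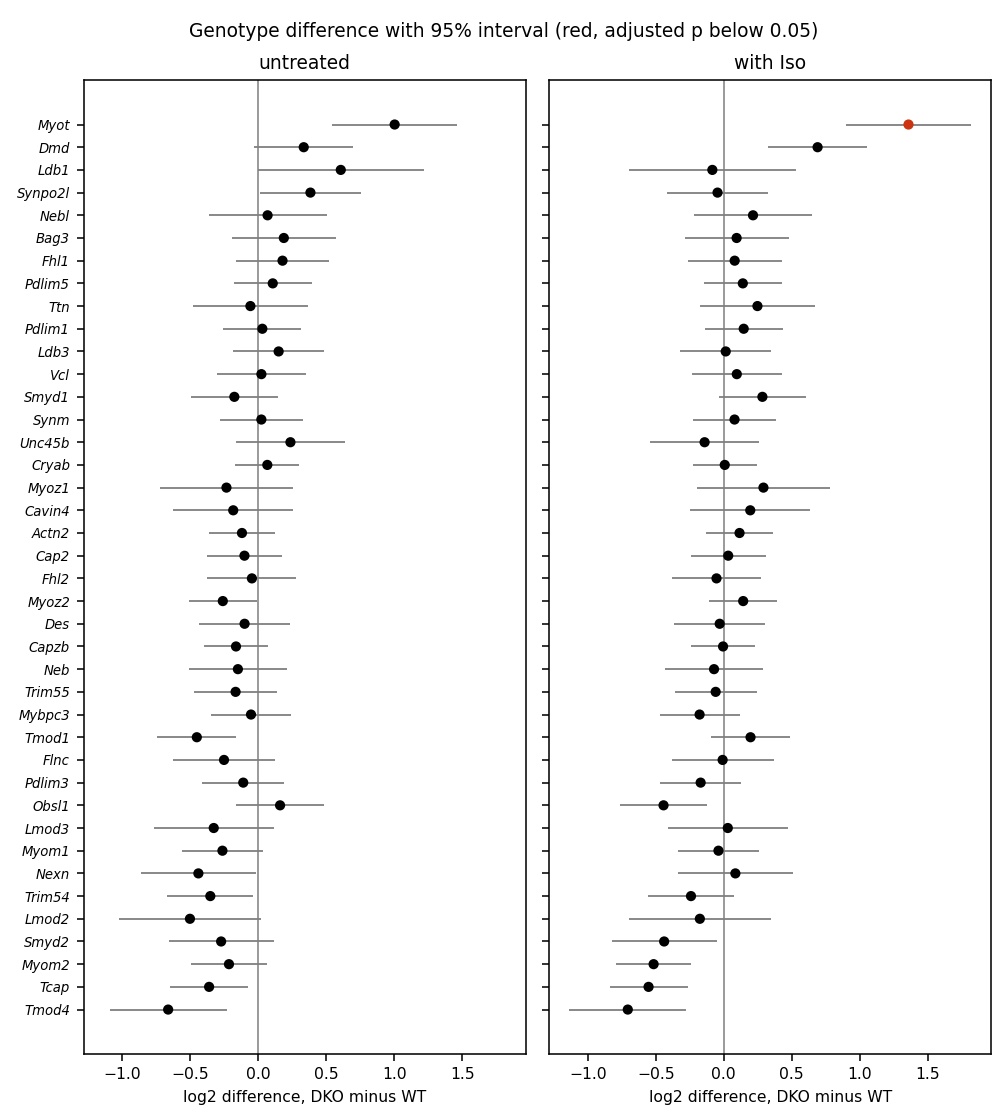
Log2 difference of DKO from WT for the 40 tested structural genes, untreated (left) and with Iso (right), with 95% intervals; red marks an adjusted p under 0.05. Myot with Iso is the 1 red point, at 1.36.

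Genes that work with these members were read from 5 further lists. In the comparisons of groups by treatment or genotype, and in Iso averaged, 0 of their 73 tested genes passed by limma. In DKO against WT averaged over treatments, 2 of 73 passed, against 0.546% of all genes. Mylk3, which encodes the cardiac myosin light chain kinase, fell by 0.68 on the log2 scale (SE 0.12, adjusted p = 0.0230). It read 8.06, 8.23 and 8.10 untreated and 8.11, 8.51 and 8.39 with Iso in WT, and 7.64, 7.77 and 7.15 untreated and 7.65, 7.66 and 7.43 with Iso in DKO, so that no DKO array reached the lowest WT array. Cfl1, which encodes an actin-severing cofilin, rose by 0.43 (SE 0.08, adjusted p = 0.0352), at a low signal of 3.23 to 4.01.

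Of the 10 tested genes of the dystrophin glycoprotein complex, 3 were higher and 1 lower with Iso in DKO at an unadjusted p under 0.05, which 18.4% of all genes reached. The lower one was the sarcoglycan gene Sgca, at -0.68 (adjusted p = 0.0615), opposite in sign to Dmd at 0.77. For Utrn, the autosomal relative of Dmd, the difference was 0.46 (adjusted p = 0.113). Of 17 partners of integrins and vinculin, 6 were higher and 1 lower by the same measure, beside 18.4% of all genes. Xirp2, which encodes an actin-binding protein of the intercalated disc, differed by 0.87 (adjusted p = 0.0717), and Sorbs2 by 0.55 (adjusted p = 0.108).

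Of 22 other partners of titin and the Z-disc, 1 was higher and 8 lower in untreated DKO than in untreated WT at an unadjusted p under 0.05, where 13.8% of all genes reached it. The stretch-responsive titin partner Ankrd1 differed by -0.91 (adjusted p = 0.100). It read 12.77, 12.66 and 12.49 in WT and 11.86, 12.02 and 11.31 in DKO, and these groups did not overlap. Among 13 small heat shock and folding partners, Hspa1b differed with Iso in DKO by 0.65 (adjusted p = 0.0993) and Hspb2 by -0.59 (adjusted p = 0.0980). Among 11 capping and severing proteins, Capza1, the partner of Capzb in the capping protein, differed by -0.91 in untreated DKO (adjusted p = 0.102), where Capzb differed by -0.16. Its signal was low, at 4.11 to 5.41. With Iso, Capza1 differed between DKO and WT by 0.15 (adjusted p = 0.945). Its Iso difference was -0.64 in WT and 0.42 in DKO.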

How the data were processed

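Per the labels, total RNA of cultured myocytes was biotin-labelled and read on Affymetrix arrays, 12 arrays from 6 mice. The authors used RMA to summarise them, per the submitters' processing notes, and the deposited values are log2 signals, which ran from 2.25 to 13.8. The sources used here do not give the RMA version, the array type or the annotation build. Of 25428 probe sets, 24705 carried 1 gene symbol. Genes above the array median on at least 3 arrays were kept, 13737 in all; 10967 were dim.

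limma 3.58.1 (R 4.3.3) fitted 4 group means over the 12 arrays with moderated variances, and p-values were adjusted by Benjamini-Hochberg over the genes kept. Genes with an adjusted p under 0.05 passed. The main fit held no term for the mouse, so the untreated and the treated array of a mouse counted as independent. This also holds for the genotype difference averaged over treatments. The mouse as a fixed block could not give comparisons of genotypes, and there only the random block was tried. There were 7 comparisons. The fit was tested on simulated data. Same-numbered arrays come from 1 mouse per the labels, and their deviations correlated at 0.00733, 0.0864 and 0.130 in DKO and -0.0623, 0.0566 and 0.0109 in WT. The members and lists were chosen with earlier results of these data known. Members called in a comparison, and the 5 with the smallest p in each, were given array by array; of other lists, genes called and the 2 with the smallest p. Smyd2, drawn by array as well, falls outside that rule and was chosen after its values were seen. Array 1 of a group means the biological replicate of that number. Some genes of the other lists are not reported here. Alternatives were other filters, scalings, moderation, array weights, the mouse as a block, the 6 arrays compared and each array left out.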

Additional observations from a re-analysis of the deposited data

Results flagged for a closer look

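The Iso difference pointed one way in every WT mouse and the other way in every DKO mouse for 2 of 40 members, 5%, where 4.77% of all genes tested did so. For Myoz2 the 3 WT mice gave -0.02, -0.01 and -0.31 and the 3 DKO mice 0.22, 0.23 and 0.42. The difference of DKO from WT was 0.40 (SE 0.16, unadjusted p = 0.0281, adjusted p = 0.447). For Ldb1 the WT mice gave 0.75, 0.25 and 0.03 and the DKO mice -0.36, -0.04 and -0.63. Its difference was -0.69 (SE 0.40, unadjusted p = 0.108, adjusted p = 0.549). Neither difference passed.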

How the results depend on the processing

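The alternatives were checked for the members called in a comparison and the 5 with the smallest p in it. None of these differences changed sign under an alternative. Other differences given above, such as that of Ttn between untreated genotypes, were not part of this check. The difference of Myot averaged over treatments passed under all 20 alternatives tried for it. With Iso alone, Myot kept its size but did not pass when any 1 of the 6 arrays compared was left out, while its averaged difference did. The number of structural genes that passed grew with array weights, which gave untreated DKO array 3 a weight of 0.16: it was 5 for Iso in DKO (Dmd, Nexn, Obsl1, Tmod1 and Ttn; 1109 of 13737 genes in all), 2 for DKO against WT untreated (698 genes), 4 with Iso (164), 4 for Iso averaged (581) and 5 for genotype averaged (Dmd, Myom2, Myot, Tcap and Tmod4; 475). It was 2 for genotype averaged (Myot and Tcap) without the filter (76 genes in all), with a filter at the 25th percentile (75) and with trended robust moderation (75). It was 2 for genotype with Iso (Myot and Tmod4) with only the 6 arrays compared (77 genes in all). The cause was not tested. With the mouse as a fixed block 1 member passed for Iso averaged, Ttn (13 genes in all). The replicate block changed no other call.

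With each array left out in turn, the number that passed ran from 0 to 3 for Iso in DKO, 0 to 1 for genotype untreated, 0 to 3 for genotype with Iso, 0 to 2 for Iso averaged and 1 to 4 for genotype averaged. The 3 for Iso in DKO (Nexn, Tmod1 and Ttn) came without untreated DKO array 2, where 605 of all genes passed. The highest of the other counts came without untreated DKO array 3, where 46, 163, 102 and 244 of all genes passed. Of the differences of named genes, 699 values kept their side of the threshold, 6 lost it, all of Myot with Iso, and 35 gained it.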
